A study of Mus with 8 samples.

Results

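The interleukin 1 family examined here comprised 8 genes, the alarmin Il33 with its receptor chains Il1rl1 and Il1rap, the ligands Il1a, Il1b and Il18, the antagonist Il1rn and the receptor Il1r1. Probes were taken by platform gene symbol, old or current, and 19 probes represented 7 of the 8 genes. 6 of the 8 genes passed the filter on dim probes, out of 11859 genes tested over the whole array. These 6 were Il33, Il18, Il1b, Il1rn, Il1rap and Il1r1, whereas both Il1a probes stayed below detection on every array and no probe was named for Il1rl1, which was therefore not analysed here. The genes were chosen with the contrast between genotypes already known, so their differences are given as a description and not as tests.

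Interleukin 33 is a nuclear cytokine that is stored in barrier, endothelial and stromal cells and is released when they are damaged, hence the name alarmin. It signals through a receptor made of ST2, encoded by Il1rl1, and the shared accessory chain encoded by Il1rap, and from there through MyD88 and NF-κB. The interleukin 1 ligands use the same accessory chain with the receptor encoded by Il1r1, and Il1rn encodes an antagonist that occupies this receptor without signalling. Interleukin 1β and interleukin 18 are made as precursors, are cut by caspase 1 in inflammasomes, and come largely from macrophages.

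Aortic vascular smooth muscle cells were cultured from male C57 black 6 mice aged 8 weeks and were profiled at passage 1 on Illumina bead arrays, 1 array per culture. The 4 WT cultures were Tie2floxed:SM22α Cre- and the 4 KO cultures Tie2floxed:SM22α Cre+, so both groups carried the floxed Tie2 gene (Tek) and differed in the Cre transgene. SM22α is a smooth muscle gene, and cells in the cultures that do not use its promoter would keep the floxed gene. Whether a culture came from 1 mouse or from several pooled mice is not stated in the labels, so the spread between cultures may be technical in part.

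Each array had between 44.9% and 49.5% of its probes detected, at a median of 38 to 40 beads per probe, and the number of arrays limits the precision. Intensities are given as background-corrected, quantile-normalised log2 values. The level of 1 probe cannot be set against that of another. All WT arrays shared slide 1 with KO replicates 1 and 2. The other KO arrays, of replicates 3 and 4, were alone on slide 2. Tek, which encodes Tie2, averaged 6.72 ± 0.49 (SD, n = 4) for the WT cultures and 5.24 ± 0.33 (SD, n = 4) for the KO cultures, a difference of -1.48 without overlap between the groups. The Tek difference was -0.61 on the log2 scale in the value table normalised by the authors and -0.62 without background correction. The smooth muscle markers Acta2, Myh11 and Tagln were detected on all 8 arrays. So were the macrophage markers Cd68, Adgre1 and Csf1r and the fibroblast marker Pdgfra. Some markers of the same lists were detected on fewer arrays. The smooth muscle marker Cnn1 was detected in 1 WT and 3 KO cultures. The leukocyte marker Ptprc was detected in 2 and 2, Itgam on 3 arrays, and the fibroblast marker Scara5 in 2 WT and 2 KO cultures. Of 10 endothelial markers, 6 were detected on 7 or 8 arrays, Cdh5 among them, and Kdr, Tie1, Vwf and Erg on 3, 2, 1 and 0. Of 9 mast cell markers, Fcer1a was detected on 4 arrays and the other 8 on 0 to 3, with Cpa3 at 0. WT replicate 2 stood apart. It had the lowest mean over 8 smooth muscle markers, 7.75 against 8.51 to 9.24 in the other cultures, and the highest mean over 18 leukocyte markers, 11.14.

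Il33 was the gene with the largest difference between group means on the array, at -2.68 on the log2 scale with a standard error of 0.94 (KO minus WT), or 6.42-fold. In order of replicate number, the WT cultures read 6.36, 11.08, 10.24 and 9.63 and the KO cultures 6.47, 7.57, 5.48 and 7.05 on the log2 scale. All values by culture below follow this order. 3 WT cultures were thus high, while WT replicate 1 lay among the KO cultures, below 3 of them, so that the groups overlapped. The gap between the lowest of the 3 high cultures and the highest of the 5 low ones was 2.06 on the log2 scale.

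In the value table that the authors had normalised themselves, on a linear scale with array medians of 113 to 116, Il33 stood at 170, 2219, 1270.3 and 889 in WT and at 179, 263, 134 and 231 in KO. The same 3 WT cultures stood out. The difference was -2.05 on the log2 scale in that table. The single Il33 probe was detected on all 8 arrays, with 32 to 47 beads per array, and no second probe was there to compare it with.

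Il33 averaged 9.33 ± 2.07 (SD, n = 4) over WT and 6.64 ± 0.90 (SD, n = 4) over KO. The spread within WT was larger than that of 99.7% of all genes, and the spread within KO larger than that of 95.5%. 252 genes had a smaller unadjusted p in limma than Il33. The Il33 difference depended on single WT cultures. It was -3.67 without WT replicate 1 and -2.10 without WT replicate 2, and the other single omissions lay between these. Within slide 1, where 4 WT and 2 KO cultures could be compared, it was -2.30.

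**Figure D1:**
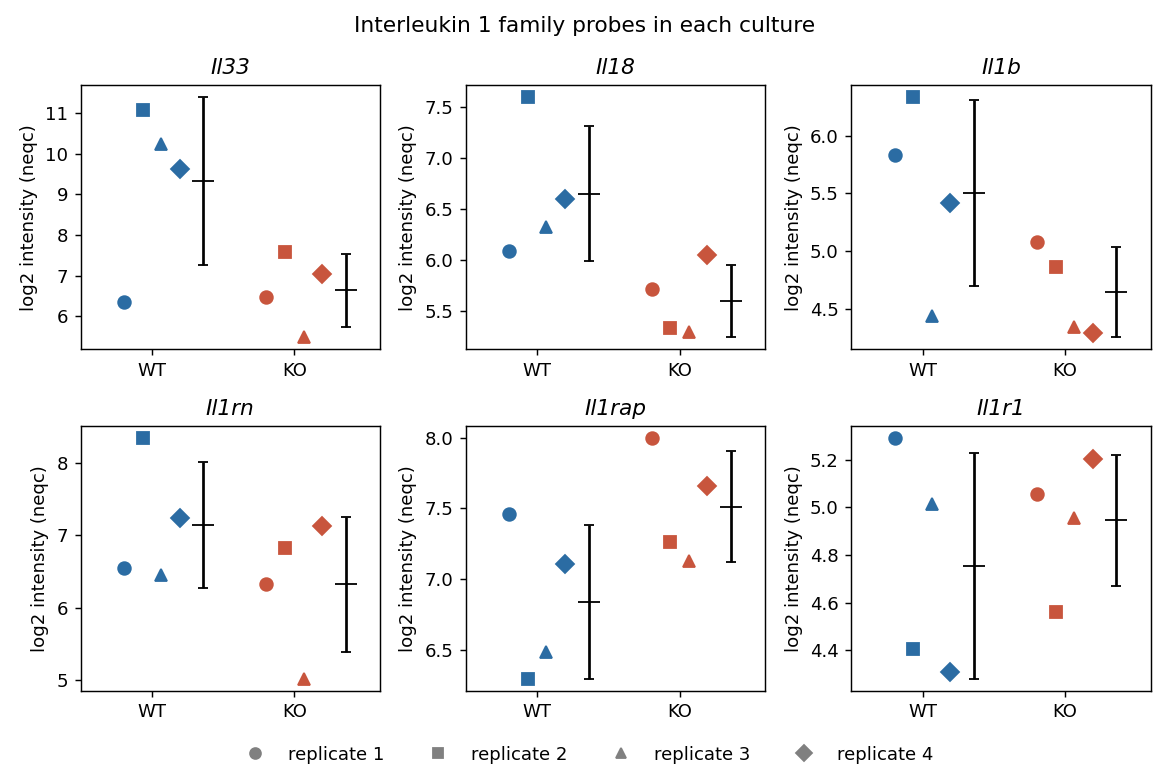
Normalised log2 intensity (vertical axis, a separate scale per panel) of the 6 tested genes in each WT (blue) and KO (red) culture, with the replicate number as the symbol and the mean ± SD (n = 4) in black. Il33 is between 9.63 and 11.08 in 3 WT cultures and between 5.48 and 7.57 in the other 5 cultures, WT replicate 1 included.

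Among the other ligands, Il18 was lower in every KO culture than in any WT culture. This gene encodes a cytokine best known for inducing interferon γ. Its log2 intensity was 6.08, 7.60, 6.32 and 6.59 in WT and 5.72, 5.32, 5.29 and 6.04 in KO. The gap between the groups was narrow, since WT replicate 1 at 6.08 and KO replicate 4 at 6.04 almost met. The mean difference was -1.06 with a standard error of 0.34. It was -0.74 without WT replicate 2, the culture with the highest Il18, and -1.13 within slide 1. In the authors' value table it was -0.46. The other Il18 probe was detected on 3 arrays, too few to be kept.

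Il1b, which encodes interleukin 1β, was near the limit of detection. Its probe passed detection in 3 WT and 1 KO culture. Log2 intensities were 5.83, 6.34, 4.44 and 5.41 in WT and 5.08, 4.87, 4.34 and 4.29 in KO. WT replicate 3 lay as low as the lowest KO cultures. The mean difference of -0.86, with a standard error of 0.39, was -0.53 within slide 1 and -0.29 in the authors' value table. Il1a, its neighbour on the chromosome in the RefSeq gene order, encodes interleukin 1α, which acts without cleavage by caspase 1. Its probes were detected on 0 of 8 arrays. A probe that is not detected does not show an absent transcript. The only probe named for Hmgb1, a chromatin protein made in nearly all cells, was detected on 0 arrays too.

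Il1rn, the receptor antagonist gene, differed between the groups by less than the SD within either of them, 0.87 in WT and 0.93 in KO. The brightest probe read 6.55, 8.35, 6.45 and 7.25 in WT and 6.33, 6.82, 5.02 and 7.13 in KO. WT replicate 2 was high and KO replicate 3 low, and the remaining 6 cultures lay between 6.33 and 7.25. The mean difference was -0.83 with a standard error of 0.54, and leaving out WT replicate 2 gave -0.43, leaving out KO replicate 3 gave -0.39. The other kept Il1rn probes gave -0.48 and 0.26, so that the probes disagreed in sign. Those probes were dim and were each detected on 4 arrays.

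Of the receptor chains, Il1rap and Il1r1 could be read. Il1rap, the accessory chain that Il33 and the interleukin 1 receptors have in common, was higher in KO by 0.67 with a standard error of 0.30. Its log2 intensity was 7.46, 6.30, 6.49 and 7.11 in WT and 8.00, 7.26, 7.13 and 7.66 in KO. WT replicate 1 exceeded KO replicates 2 and 3, so the groups overlapped. Within slide 1 the difference was 0.79, and the value table of the authors gave 0.42. Il1rap had the most probes of the family, 7, of which 6 were kept. 5 of the 6 were higher in KO, by 0.29 to 0.67, and 1 was lower, by 0.39. The mean over the kept probes differed by 0.34.

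Il1r1, the signalling receptor for interleukin 1, was at the edge of detection, reached in 2 WT and 3 KO cultures. It ranged from 4.31 to 5.29 in WT and from 4.56 to 5.21 in KO. The difference of 0.19, with a standard error of 0.26, lay within that spread. Il1rl1 itself, which with Il1rap forms the receptor for Il33, could not be read. It lies in a run of receptor genes that also holds Il1r2, Il1r1, Il1rl2, Il18r1 and Il18rap in the RefSeq order of assembly GRCm38.p6.

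**Figure D2:**
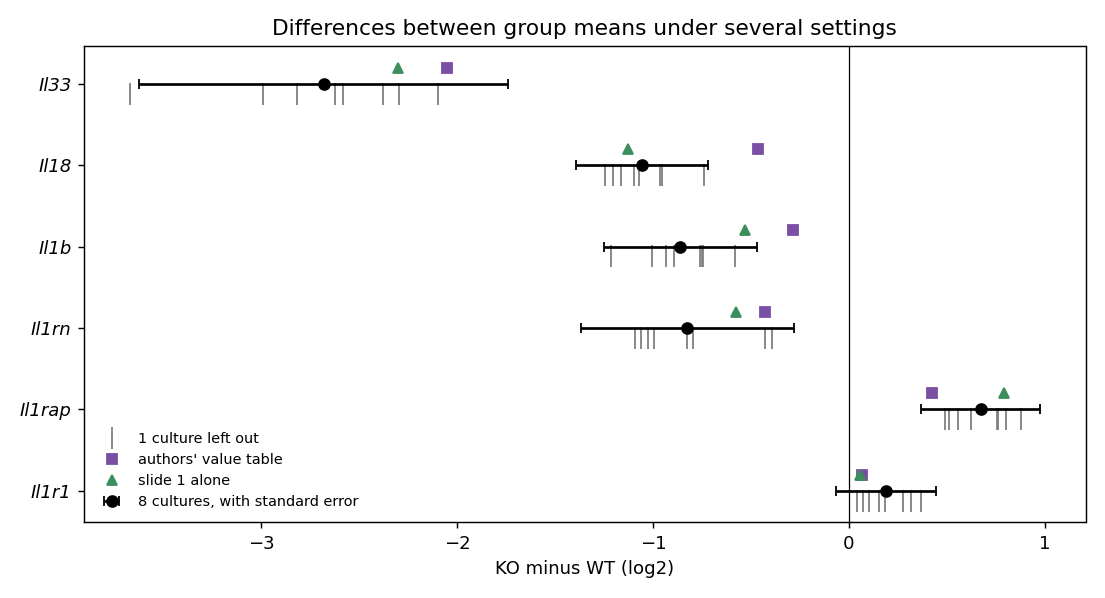
Difference between group means (KO minus WT, log2, horizontal axis) of the 6 tested genes with all 8 cultures and its standard error (black), with each culture left out in turn (grey ticks), in the authors' value table (purple) and within slide 1 (green). Each gene keeps its sign in all of these, Il33 runs from -3.67 to -2.05, and Il1r1 lies closest to 0.

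Of the 6 tested genes, 4 were lower and 2 higher in KO by sign, with a median difference of -0.84 against -0.0024 over all genes, where 50.3% were lower by sign. Without WT replicate 2 it was again 4 lower and 2 higher, with a median of -0.51. 0 of the 6 passed an adjusted p of 0.05 in limma with Benjamini-Hochberg adjustment over all genes, as did 0% of the array. At an unadjusted p under 0.05 there were 2, Il33 and Il18, against 5.74% of the array. 1 gene, Il18, had groups that did not overlap, as did 3.28% of the array. 2 differed by at least 2-fold, against 1.73% of the array. Since the genes were chosen on this contrast, nothing is read from these counts.

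Il1b, Il1rn and Il18 are genes of macrophages as well, and the cultures differed in their leukocyte markers. The mean over 18 tested leukocyte markers was 10.52, 11.14, 7.61 and 8.92 in WT and 9.93, 9.61, 6.92 and 7.97 in KO. 18 of the 18 were lower in KO by sign, with a median of -0.91, and in limma without a block 0 passed the threshold or had an unadjusted p under 0.05. Without WT replicate 2, 16 of the 18 were lower by sign, with a median of -0.34. Within slide 1 the direction turned, with 3 of the 18 lower, 15 higher and a median of 0.17. Slide 1 sets KO replicates 1 and 2 against all 4 WT cultures, of which replicates 3 and 4 had the lower means. By equal replicate number, which the labels do not pair, the KO mean was below the WT mean at each number. With this number as a block in limma, 0 of the 18 had an adjusted p under 0.05. At an unadjusted p under 0.05 there were 13, against 1005 of the 11859 genes tested. KO replicates 3 and 4 were alone on slide 2, so slide and culture cannot be told apart there. Fewer leukocytes and less RNA per leukocyte cannot be told apart in such samples.

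Il1b followed these markers most closely of the 5 genes compared. Over the 8 cultures Pearson's r was 0.895 (exact permutation p = 0.00347, adjusted over 5 relations 0.0174) and Spearman's rho 0.857 (exact permutation p = 0.0107, adjusted 0.0536). It was 0.825 without WT replicate 2 and KO replicate 3, the cultures with the most extreme markers, and 0.855 over the 6 cultures of slide 1. For Il1rn, r was 0.649 (exact permutation p = 0.0746, adjusted 0.186) and rho 0.476 (exact permutation p = 0.243, adjusted 0.499), and without those cultures r was -0.308. For Il18, r was 0.479 (exact permutation p = 0.234, adjusted 0.39) and rho 0.429 (exact permutation p = 0.299, adjusted 0.499), and it turned to -0.429 without them. Over slide 1, which lacks KO replicate 3 but holds WT replicate 2, r was 0.505 for Il1rn and 0.276 for Il18. With all 8 cultures neither Il1rn nor Il18 had an adjusted exact permutation p under 0.05. The 6 cultures left without WT replicate 2 and KO replicate 3 span a narrower range of marker means, so nothing is read from the sign of r there. Il1rap and Il1r1 had r of -0.0105 and -0.267, with adjusted exact permutation p of 0.979 and 0.633. These permutations shuffled all 8 cultures freely and kept neither genotype nor replicate number, so their p-values allow for neither. The Il1b probe passed detection in only 3 WT and 1 KO culture, so part of its values were near background.

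Il33 and the leukocyte markers were both highest in WT replicate 2 and both lowest in KO replicate 3. WT replicate 1 combined a leukocyte mean of 10.52 with an Il33 of 6.36, and WT replicate 3 a mean of 7.61 with an Il33 of 10.24. As a description over the 8 cultures, r with Il33 ran from 0.01 to 0.43 over the 18 leukocyte markers. It ran from -0.75 to 0.79 over 11 fibroblast markers, from -0.52 to 0.19 over 6 endothelial markers and from -0.79 to 0.39 over 8 smooth muscle markers. Of the smooth muscle markers, Acta2, Myh11, Tagln, Lmod1, Smtn and Myocd lay between -0.79 and -0.65, Cnn1 at -0.15 and Des at 0.39. Of the fibroblast markers, Pdgfra, Lum, Dcn, Pi16 and Mfap5 lay between 0.61 and 0.79 and Col14a1 at 0.11. Dpt, Cd34, Clec3b, Dpep1 and Scara5 lay between -0.75 and -0.03. Since Il33 fell into 3 high and 5 low cultures, no test is given. Smooth muscle markers were higher in KO by sign in 8 of 8, with a median of 0.42, their lowest mean being that of WT replicate 2, and 6 of 8 were higher by sign, with a median of 0.31, without that culture. Without this culture the Il33 difference was -2.10, as given above. Adventitial fibroblast markers had means of 8.07 to 8.79 in WT and 7.70 to 8.56 in KO, and endothelial markers 6.18 to 7.61 in WT and 6.72 to 7.60 in KO. By sign 8 of 11 fibroblast markers were lower in KO, with a median of -0.18, against 50.3% of all genes. Without WT replicate 2 there were 7 lower (median -0.11), and within slide 1 there were 9 (median -0.24). Endothelial markers were higher in KO by sign in 5 of 6, with a median of 0.37, and in 4 of 6 without WT replicate 2 (median 0.18). Both kinds of cell can make Il33. The part of these cells and of leukocytes in its difference was not tested.

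**Figure D3:**
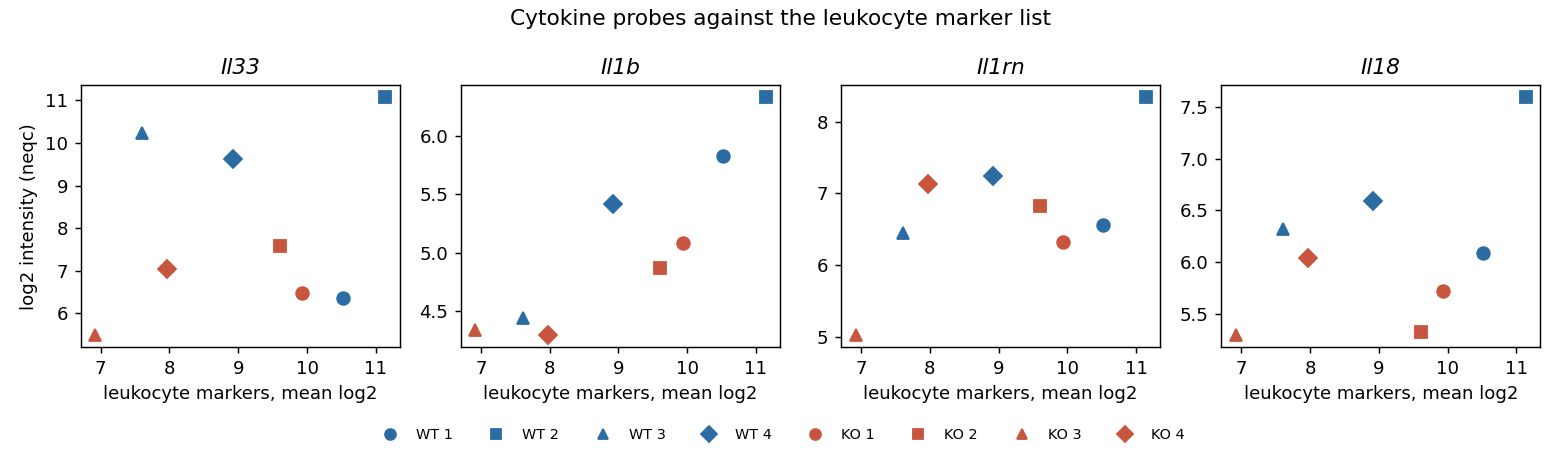
Log2 intensity of Il33, Il1b, Il1rn and Il18 (vertical axes, separate scales) against the mean log2 intensity of 18 leukocyte markers (horizontal axis) in 4 WT (blue) and 4 KO (red) cultures, with the replicate number as the symbol. Il1b climbs with the markers (r = 0.895), whereas the Il33 values of 6.36 and 10.24 sit at marker means of 10.52 and 7.61.

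Genes were ranked by Pearson correlation with Il33 over the 8 cultures, among 6352 genes whose range was at least 1 log2 unit. The ranking is a description of which probes share the pattern of 3 high and 5 low cultures, and 43 genes had r above 0.9 and 47 below -0.9. The gene most like Il33 was Vstm4, which encodes a membrane protein with an immunoglobulin domain, at r = 0.98. Its log2 intensity was 7.55, 10.45, 9.57 and 9.31 in WT and 7.79, 7.91, 7.44 and 7.94 in KO. As for Il33, WT replicates 2 to 4 were high, and WT replicate 1 lay beside the KO cultures. Without WT replicates 2 and 3, the cultures farthest from the Il33 median, r was 0.96.

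The positional gene Hoxa11 and its antisense transcript Hoxa11os were also among the 10 most alike, at r = 0.96 and 0.97. Hoxa11 read 4.30, 6.04, 6.09 and 5.88 in WT and 4.22, 5.16, 4.27 and 4.28 in KO, with detection in 3 WT and 1 KO culture. Hox genes mark position in the body plan. WT replicate 1 was again unlike the other WT cultures. The other genes of the 10 most alike were Tug1, a long non-coding RNA, Rpl13a, a ribosomal protein gene with many near-identical copies, and Anxa8, an annexin. Gm13212, Fcgbp, Cyp2c23, a cytochrome P450, and Dlgap1, a synaptic scaffold gene, completed them, with r from 0.94 to 0.98 over the 10. Hoxa11os was detected in 3 WT and 2 KO cultures, Fcgbp in 3 and 1, Cyp2c23 in 4 and 2 and Dlgap1 in 3 and 4. The low values of these genes and of Hoxa11 were thus near the limit of detection. All 10 were lower in KO by sign, which the shape of the Il33 pattern brings with it.

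The 5 genes most unlike Il33 were Cfl2, a cofilin that turns over actin filaments in muscle, the kinase gene Pak3, the phosphatase gene Ppp5c, the small GTPase gene Rab1b and Chp1, a calcium-binding protein gene. Their r ran from -0.99 for Cfl2 to -0.95 for Chp1. Cfl2 read 8.87, 7.97, 8.27 and 8.35 in WT and 8.86, 8.70, 8.98 and 8.69 in KO. It was lowest where Il33 was highest, over a range of 1.00.

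Second probes often did not show the pattern. 6 of these 15 genes had further kept probes, 8 in all. The further probe of Anxa8 had r = 0.68 with Il33. Those of Tug1 had 0.43, -0.08 and -0.22, and that of Dlgap1 0.12. Those of Cfl2, Rab1b and Ppp5c had -0.13, 0.07 and 0.61, the last of these with the opposite sign to the brighter probe. Within the family, r with Il33 was 0.83 for Il18, 0.73 for Il1rn, 0.42 for Il1b, -0.63 for Il1r1 and -0.79 for Il1rap. Without WT replicates 2 and 3 it was 0.68, 0.77, 0.33, -0.79 and -0.32.

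**Figure D4:**
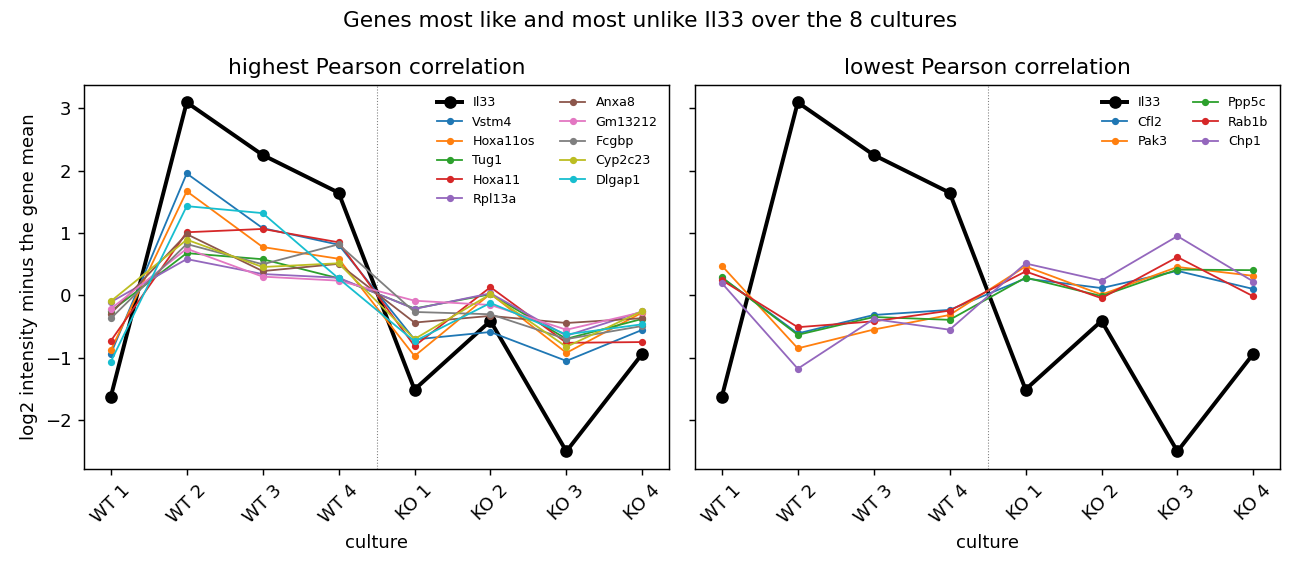
Log2 intensity minus each gene's own mean (vertical axis) in the 8 cultures (horizontal axis; lines only join the points of a gene) for Il33 in black with the 10 genes of highest and the 5 genes of lowest Pearson correlation with it. Il33 and Vstm4 are high in WT replicates 2 to 4 and low in WT replicate 1 and in KO, and Cfl2 runs the other way.

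The wider pathway was followed through 98 genes in 7 lists, of which 64 were tested, 28 were detected on fewer than 4 arrays and 6 had no probe named. 33 of the 64 were lower and 31 higher in KO by sign. Under limma 0 reached an adjusted p of 0.05, and 2 had an unadjusted p under 0.05, 1 lower, against 3.13% of the array, and 1 higher, against 2.61%. The median difference of the 64 was -0.02.

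Of the other ligands, only Il1f10 was detected on enough arrays to be tested, with a difference of -0.05 that was 0.10 without KO replicate 2. The interleukin 36 genes Il1f5, Il1f6, Il1f8 and Il1f9 were detected on 0 arrays. Among 8 other receptors, decoys and binding proteins, 4 were tested. Il1rl2, the interleukin 36 receptor, had the 1 unadjusted p under 0.05 among lower genes, with a difference of -0.38 and a standard error of 0.15 (limma adjusted p 0.83). Detection was reached in 4 WT and 2 KO cultures, and the difference was -0.11 without background correction. Il18bp, which neutralises interleukin 18, stood at 0.14, or -0.03 without KO replicate 2. The decoy receptor Il1r2 stood at -0.17, and between -0.44 without WT replicate 3 and -0.0051 without KO replicate 2.

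Inflammasome and processing genes were lower in KO by sign in 5 of 7 tested, with a median of -0.44, and 4 of 7 were lower, with a median of -0.06, without WT replicate 2. Within slide 1 the median was -0.12. Pycard, the inflammasome adaptor, read 5.13, 7.15, 4.52 and 5.58 in WT and 4.50, 4.79, 4.99 and 4.51 in KO, a difference of -0.90 that was -0.38 without WT replicate 2. This Pycard probe passed detection in 3 WT and 1 KO culture. Its difference was -0.33 in the authors' value table, and the second kept Pycard probe gave -0.30. Capn1 and Capn2 encode catalytic subunits of calpains, proteases that cut the interleukin 1α precursor, and differed by -0.50 and 0.42. Within slide 1 Capn1 differed by -0.12, and without WT replicate 2 Capn2 differed by 0.18. The second kept probe of Capn1 gave 0.18, and 4 further probes of Capn2 gave 0.40 to 0.69. Probes for Nlrp3, the sensor of the best-known inflammasome, were detected on 0 arrays.

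Signalling genes below the receptors were balanced, with 10 of 20 lower and 10 higher in KO and a median of 0.00. Without WT replicate 2 there were 7 lower and 13 higher, and within slide 1 there were 14 lower and 6 higher, with a median of -0.09. Nfkb1, which encodes the p105 precursor of the NF-κB subunit p50, was the 1 gene higher at an unadjusted p under 0.05. It read 6.28, 4.73, 4.55 and 4.93 in WT and 6.11, 6.37, 6.15 and 5.81 in KO. WT replicate 1 was with the KO cultures, as for Il33, and the remaining WT cultures were below them all. The single Nfkb1 probe passed detection in 3 WT and 4 KO cultures, and its low WT values were near the limit of detection. The difference of 0.99 had a standard error of 0.36 and a limma adjusted p of 0.83, and in the authors' value table it was 0.33. Map3k7, which encodes the kinase TAK1, stood at -0.39, and its second kept probe, which passed detection in 0 WT and 4 KO cultures, at 0.78. Within slide 1 the first Map3k7 probe stood at 0.10. Mapk8, which encodes the stress kinase JNK1, stood at 0.28, or 0.03 within slide 1.

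Genes known to answer interleukin 1 in stromal cells were divided too, 11 lower and 12 higher of 23 tested, with a median of 0.02. Within slide 1, 5 were lower and 18 higher by sign, with a median of 0.32. Limma gave 0 of them an adjusted p under 0.05 there. An unadjusted p under 0.05 was reached by 2, against 495 of the 11859 genes tested in that setting. Slide 1 sets KO replicates 1 and 2 against all WT cultures, so replicate numbers are not balanced between its groups. Whether the shift by sign is particular to this list was not tested. Cxcl1, a neutrophil chemokine, read 9.49, 6.94, 7.78 and 8.81 in WT and 10.76, 9.12, 7.91 and 9.93 in KO, a difference of 1.17 with a standard error of 0.70 (limma adjusted p 0.83) that was 0.74 without WT replicate 2. Nfkb2, an NF-κB subunit gene, and Zc3h12a, an RNase that limits cytokine transcripts, stood at -0.42 and 0.36, and within slide 1 at -0.02 and 0.47.

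3 of 10 genes of the type 2 response that Il33 drives in lymphocytes and macrophages were tested. Arg1, arginase 1 of alternatively activated macrophages, was at 12.49 in WT replicate 2 and between 4.19 and 6.99 elsewhere. Its difference of -1.51 was 0.43 without that culture. Ccl17, a chemokine for type 2 lymphocytes, differed by 1.10 (standard error 1.12), by 0.39 without WT replicate 2 and by 2.47 within slide 1. Il13, a type 2 cytokine, differed by -0.04, with either sign when 1 culture was left out. Of 6 tested other alarmins, 2 were lower and 4 higher in KO by sign. S100b, S100a8 and Hmgb2 differed by 0.35, 0.65 and -0.34, each by about 1 standard error (0.29, 0.67 and 0.36). S100a8 differed by 0.17 without KO replicate 1. Within slide 1, Hmgb2 differed by 0.35, with the sign turned, and 6 of the 6 were higher in KO by sign.

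**Figure D5:**
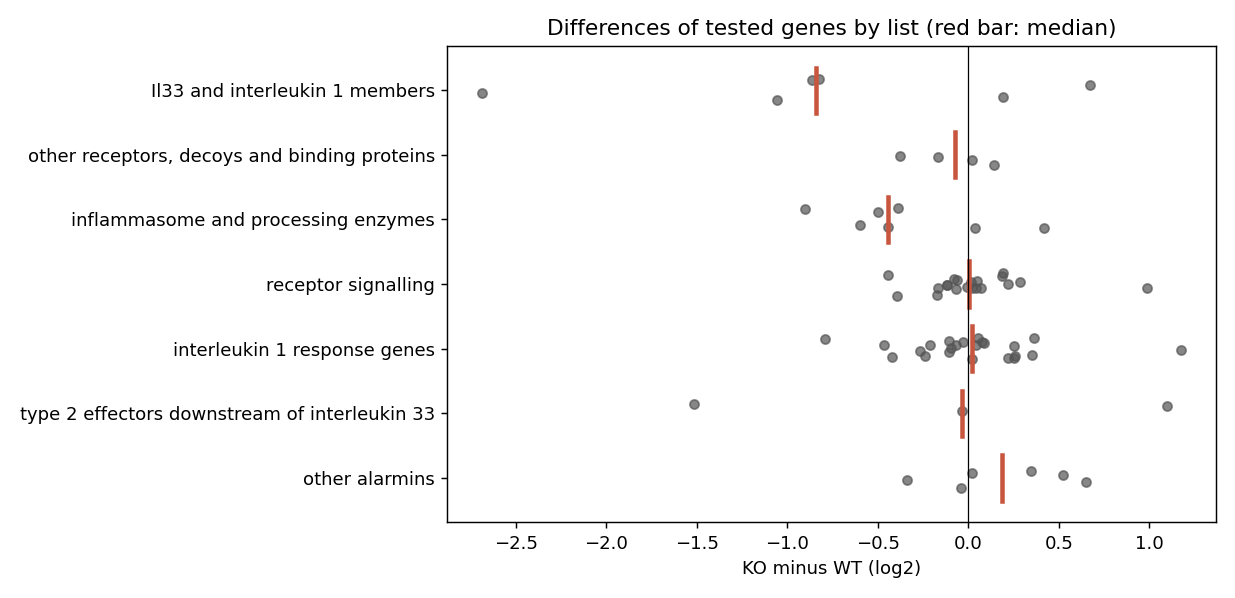
Differences between group means (KO minus WT, log2, horizontal axis) of the tested genes of each list, 1 point per gene with vertical jitter only for legibility, and the list median as a red bar. The median is -0.84 for the interleukin 1 members, -0.44 for inflammasome and processing genes and 0.00 for receptor signalling.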

How the data were processed

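RNA of 8 cultures, 4 WT and 4 KO, was measured on Illumina bead arrays. The deposited scanner table holds, per the file headers, a mean bead intensity for each probe, its bead count and its detection p-value. These deposited intensities were not normalised between arrays. The deposited value table gives intensities after normalisation between arrays by the authors. For both tables, software and method are not given in the sources used here. Set against the scanner table, the value table is linear and uncentred.

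Joined by probe identifier, the tables were unrelated, at Spearman correlations of -0.0083 to -0.0047. Rows were matched by their ranks on the 8 arrays instead, which paired 46237 of 46237 rows one to one at a Spearman correlation of at least 0.9999. Symbols come from the platform annotation, updated through the RefSeq table of assembly GRCm38.p6, which named 35784 probes with 1 gene and left 10453 unnamed. That assembly served for names and gene order only. No source used here names the build behind the array probes, so no coordinates are printed.

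neqc of limma 3.58.1 in R 4.3.3 inferred background from the detection p-values, without control probes, and used an offset of 16; log2 values follow from the deposited intensities. A probe was kept where 4 or more of the 8 arrays gave it a detection p-value below 0.05, and each gene was read through its kept probe with the highest mean. lmFit and eBayes gave differences, standard errors and two-sided p-values. Alternatives were no background correction, normexp with an offset of 50, the value table, other filters, the mean over probes, slide, replicate number and each culture left out.

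Members and lists were chosen with earlier results of these data known. Named were all members, the 3 genes of smallest p in each pathway list, the 10 genes most like and 5 most unlike Il33, and defining markers. Genes named only as not detected, and list counts without WT replicate 2, within slide 1 and with the replicate block, were added after values were seen.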

Additional observations from a re-analysis of the deposited data

Results flagged for a closer look

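Of the tested family members, 0 had a culture past Dixon's 95% critical value within its group of 4. Among all 120 groups of 4 checked over 60 named genes, 8 held such a culture. Chance gives about 1 in 20 for independent groups. These groups were not independent, since the genes share the same cultures and many were chosen on these data. The count is therefore not compared with that rate. 5 of the 8 were WT replicate 2. It was high for Arg1 (12.49, against 4.20 to 5.47 in the other WT cultures), for the fibroblast genes Pdgfra (11.03, against 8.90 to 9.18) and Dcn (14.17, against 12.39 to 12.69). It was low for Myh11, the smooth muscle myosin heavy chain (5.23, against 7.68 to 8.12), and for Capn2 (10.48, against 11.33 to 11.49). KO replicate 1 was high for Capn2 (12.08, against 11.44 to 11.48). Hoxa11, which follows Il33 over the cultures, was low in WT replicate 1 (4.30, against 5.88 to 6.09) and high in KO replicate 2 (5.16, against 4.22 to 4.28). Hoxa11 was chosen for its likeness to Il33, so these values restate that choice. Without the genes chosen that way, 6 of 90 groups over 45 genes held such a culture.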

How the results depend on the processing

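Across 17 other settings, limma called 0 genes at an adjusted p of 0.05, and the count at an unadjusted p under 0.05 ran from 464 without KO replicate 4 to 1117 without a filter on dim probes, against 681. The differences of Il33, Il18, Il1b, Il1rn, Il1rap and Il1r1 kept their sign in each of the 17 settings that tested them. Il33 lay between -3.67 and -2.10 when 1 culture was left out and between -2.68 and -2.05 elsewhere. Il1b and Il1r1 were not tested where detection on all 8 arrays was required. All 10 genes most like Il33 stayed among the 100 most alike in the authors' value table and without background correction, and 6 did so by Spearman's rho. Same-numbered WT and KO cultures deviated together with correlations of 0.0631 to 0.318, and 8 of 8 cultures correlated best with their own number, a hint from the data and not from the labels. With the replicate number as a block, Il33 kept its difference of -2.68 at a limma adjusted p of 0.547, 0 genes passed and 1005 had an unadjusted p under 0.05. Under this block 5 of the 6 members and 13 of the 18 leukocyte markers had an unadjusted p under 0.05, against 2 and 0 without it, and the smallest adjusted p in either list was 0.544. Members were chosen on this contrast. Slide as a block and slide 1 alone give the same estimates, since slide 2 held KO only. Intensities close to background limit Il1b, Il1r1 and Il1a.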

Other observations

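Tslp, another alarmin of barrier and stromal cells, was chosen after its values were seen. It spread widely, at 8.10, 4.70, 5.76 and 6.32 in WT and 8.41, 5.83, 5.87 and 6.86 in KO, and was detected on all 8 arrays. It was highest in WT replicate 1 and KO replicate 1, where Il33 stood at 6.36 and 6.47, and lowest in WT replicate 2, where Il33 stood at 11.08. Its r with Il33 over the 8 cultures was -0.64, given as a description. Upk1b, a uroplakin of the mesothelial and epithelial list, also chosen after its values were seen, had r = -0.85 with Il33. It read 9.96, 5.17, 7.35 and 8.21 in WT and 9.57, 8.17, 9.13 and 8.03 in KO. Of the 9 genes of that list 3 were tested, and the list was not uniform. Upk3b had r = -0.71 and Cdh1 r = 0.39. Msln, Lrrn4 and Krt14 were detected on 2 arrays, Krt5 and Epcam on 0, and Wt1 had no probe named.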
